A study of Danio rerio with 13 samples.

Results

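The genes of glycolysis and glycogen metabolism were examined in muscle of zebrafish (Danio rerio). They were chosen by function, from a list of 40 zebrafish symbols that covers the enzymes of glycolysis, the enzymes that build and break down glycogen, and the glucose and lactate transporters. Of these 40 symbols, 39 were found among the 32105 genes counted, and they matched 45 gene identifiers. The symbol without a match was pgk1. RNA of muscle was sequenced in 3 homozygous tert-/- mutants, 5 heterozygous tert+/- mutants and 5 wild types, all of them AB males aged 3 months. The mutant allele, hu3430, is a germline change in tert, the gene of the catalytic subunit of telomerase. No other allele or treatment is named for any of the 3 genotypes. The comparisons asked how the muscle of either mutant differed from that of wild types. Each library is named by its genotype and a number, and the numbers do not pair fish across genotypes. The study's methods count as many fish of each genotype as there are libraries, and the labels say no more on how samples were taken, so p-values measure only the spread between these libraries.

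Muscle stores glucose as glycogen and draws on it for short and fast contraction. Glycogen synthase and the branching enzyme build the polymer, while glycogen phosphorylase, switched on by phosphorylase kinase, releases its glucose units. Phosphoglucomutase joins glycogen to glycolysis, in which phosphofructokinase sets the pace, glyceraldehyde phosphate dehydrogenase and pyruvate kinase sit on the energy-yielding stretch, and lactate dehydrogenase restores the cofactor when oxygen is short. Fast fibres, which make up most of the trunk muscle of fish, are known for their high content of glycolytic enzymes. Many zebrafish genes exist as a pair of paralogs from a genome duplication in the ancestors of teleosts, the group of bony fish that includes zebrafish.

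The 15 symbols that stand for a pair of identifiers in the files are written here in capitals, as the files pair them. The identifier of the higher mean level is called the major copy and the other the minor copy, since the files do not say which is the a and which the b paralog. LDHB likewise is the symbol paired with the identifier that was taken for ldhba. Levels are given as RPKM, reads scaled to gene length and library total, recalculated from the counts with each library's own total. RPKM can be compared between genes. CPM, counts scaled to library total but not to length, with TMM factors that correct for the make-up of each library, were used only to compare genotypes within a gene. All 45 genes passed the filter on low counts, which kept 19407 genes in all.

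Total counts per library lay between 10585558 (wild type replicate 5) and 47492321 (tert+/- replicate 4). Genes of fast fibres (32 identifiers, among them actins, fast myosins and parvalbumins) took between 37.4% and 44.9% of the counts in 10 libraries, and slow fibre genes (12 identifiers) took between 0.0473% and 0.206% in all 13. Transcripts of testis and germ cells (23 identifiers) took 0.348% of the counts in tert-/- replicate 1, 0.182% in tert+/- replicate 1 and 0.0697% in wild type replicate 5, but at most 0.00541% in the others. Fast fibre genes were at 31.9% and 26.7% in the first 2 of these libraries and at 40.2% in the wild type one. The genotype comparisons are therefore given with and without these 3 libraries. The other 10 are called libraries without testis transcripts below, but they held traces. The germ cell gene DDX4, for example, was at 3.7 CPM on library totals in tert+/- replicate 5. In bulk tissue, fewer cells of a type and less RNA per cell cannot be told apart.

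Per length, the steps of glycolysis stood in a steep order. Summed over the paralogs of a step, glyceraldehyde phosphate dehydrogenase was highest, at 4694 ± 969 RPKM (SD, n = 13 libraries), followed by aldolase at 3096 ± 968 RPKM and enolase at 1926 ± 434 RPKM. This order of the top 3 steps held in 13 of 13 libraries. Phosphoglycerate mutase (645 ± 161 RPKM) and pyruvate kinase (626 ± 208 RPKM) came next and were not separated, since mutase was the higher of both in 8 libraries only. Triosephosphate isomerase (520 ± 128 RPKM) lay below pyruvate kinase in 12 libraries, and lactate dehydrogenase (456 ± 118 RPKM) lay below the isomerase in 11. Glycogen phosphorylase followed at 212 ± 93.0 RPKM, below lactate dehydrogenase in 13 libraries. Glycerol phosphate dehydrogenase (166 ± 39.7 RPKM) and phosphofructokinase (161 ± 41.8 RPKM) were not separated, since the dehydrogenase was the higher in 8 libraries only. Glucose phosphate isomerase (113 ± 49.4 RPKM) and phosphoglucomutase (109 ± 34.2 RPKM) were not separated either, with the isomerase the higher in 7 libraries. Over the 10 libraries without testis transcripts the top 3 steps averaged 5015 ± 792, 3408 ± 775 and 2054 ± 351 RPKM, and the mean of each of the 20 steps lay between 98.4% and 112% of its mean over all 13.

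The remaining steps were lower still. Glycogen synthase was at 52.9 ± 15.4 RPKM. Phosphorylase kinase, read from its catalytic subunit genes only, was at 26.6 ± 9.99 RPKM. Fructose bisphosphatase (23.1 ± 7.30 RPKM), hexokinase (18.6 ± 4.96 RPKM) and lactate export (16.9 ± 6.43 RPKM) followed, and the order of neighbours among these 3 held in at most 10 libraries. Glucose uptake through SLC2A1 (5.69 ± 3.54 RPKM) and glycogen branching (2.83 ± 1.12 RPKM) were lowest. Of the 45 genes, 14 averaged over 100 RPKM, 23 between 1 and 100 RPKM and 8 under 1 RPKM, and 4 were among the 100 genes of highest mean RPKM in the muscle. Between libraries the members had a median coefficient of variation of 40.6% over all 13 and of 31.0% over the 10 without testis transcripts, where it reached from 7.79% (major ENO1) to 75.2% (ldhbb).

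**Figure D1:**
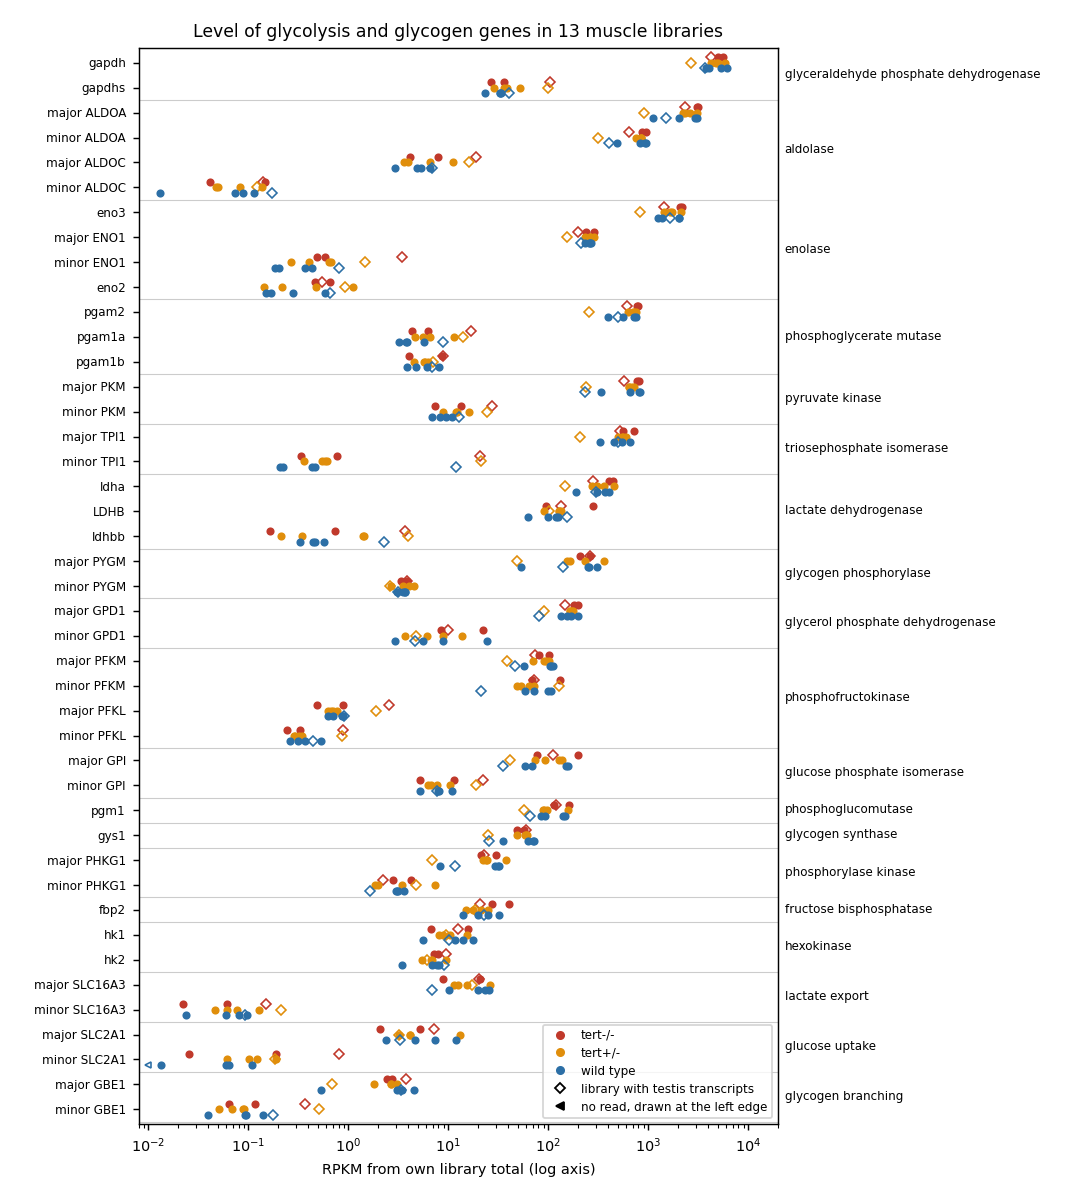
RPKM (horizontal, log axis) of 43 of the 45 genes (rows, grouped by step from the highest to the lowest summed level) in 13 muscle libraries, 1 point a library, coloured by genotype. Open diamonds are the 3 libraries with testis transcripts. gapdh averaged 4649 RPKM at the top, minor GBE1 0.147 RPKM at the bottom, and the points of the 3 genotypes overlap in every row. An arrowhead at the left edge marks minor SLC2A1 in wild type replicate 5, which had no read.

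In the payoff stretch of glycolysis, gapdh (ENSDARG00000043457), the dehydrogenase that yields the first NADH, was the highest member at 4649 RPKM and ranked 24 among all genes. It stood at 4211, 5573 and 5049 RPKM in tert-/- muscle, 2712, 5057, 4737, 5809 and 4217 RPKM in tert+/- muscle and 3820, 5313, 6218, 4020 and 3701 RPKM in wild type muscle. The lowest library was tert+/- replicate 1, and the ranges of the genotypes overlapped. Its relative gapdhs (ENSDARG00000039914), named after a sperm isozyme of mammals, averaged 44.9 RPKM (range 23.3 to 104) and was thus 104-fold lower than gapdh. Its highest values, 104 and 98.9 RPKM, were in tert-/- replicate 1 and tert+/- replicate 1. Wild type replicate 5, which also carried testis transcripts, was at 40.1 RPKM, below tert+/- replicate 2 without them (52.55 RPKM).

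Phosphoglycerate mutase was carried by pgam2 (ENSDARG00000057571), the muscle isoform in mammals, at 631 RPKM. It stood at 609, 774 and 785 RPKM in tert-/- muscle, 259, 728, 764, 714 and 629.6 RPKM in tert+/- muscle and 400, 758, 727, 558 and 502 RPKM in wild type muscle. Only tert+/- replicate 1 lay below the wild type range. The brain-type relatives pgam1a (mean 7.35 RPKM) and pgam1b (mean 6.22 RPKM) left pgam2 between 92.5% and 98.9% of the step in the 13 libraries, and it was 85.9-fold above pgam1a in the means.

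For enolase, which makes phosphoenolpyruvate, the leading gene was eno3 (ENSDARG00000039007), the muscle enolase. It stood at 1429, 2166 and 2076 RPKM in tert-/- muscle, 820.1, 2148, 1749, 1649 and 1440 RPKM in tert+/- muscle and 1259, 2039, 2058, 1364 and 1672 RPKM in wild type muscle. Again tert+/- replicate 1 was the lowest library, and the other 12 lay within a 1.72-fold range. Major ENO1 (ENSDARG00000022456), a copy of the widely expressed enolase, averaged 243 RPKM (range 155 to 290.1) and was the steadiest of all members over the 10 libraries. Minor ENO1 (ENSDARG00000013750) averaged 0.771 RPKM (range 0.184 to 3.47), and eno2, the neuronal enolase, averaged 0.49 RPKM (range 0.144 to 1.11).

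Pyruvate kinase, the last step before pyruvate, was led by major PKM (ENSDARG00000099860). It stood at 579.7, 769 and 813 RPKM in tert-/- muscle, 241, 684, 725, 645 and 650 RPKM in tert+/- muscle and 336, 827, 804, 659 and 233 RPKM in wild type muscle. Low values were found in tert+/- replicate 1, wild type replicate 5 and wild type replicate 1, so the wild type range enclosed the tert-/- range. Minor PKM (ENSDARG00000099730) averaged 13.1 RPKM (range 6.89 to 27.7), 46.6-fold below the major copy in the means. Phosphoglycerate kinase lies between gapdh and the mutase. The files name no pgk1 identifier, and the only gene with a phosphoglycerate kinase symbol, PGK2 (ENSDARG00000054191), averaged 268 RPKM and was not counted as a member. Whether this identifier is the zebrafish pgk1 under another symbol was not examined. The order of steps given above therefore leaves phosphoglycerate kinase out.

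In the upper stretch, aldolase splits fructose bisphosphate. Major ALDOA (ENSDARG00000011665), a copy of the muscle aldolase and the second highest member, stood at 2332, 3169 and 3062 RPKM in tert-/- muscle, 900.1, 2353, 3065, 2618 and 2253 RPKM in tert+/- muscle and 1110, 3101, 2952, 2046 and 1518 RPKM in wild type muscle. All 3 tert-/- libraries were above wild type replicates 1, 4 and 5, and tert-/- replicate 1 was below wild type replicates 2 and 3. Minor ALDOA (ENSDARG00000034470) averaged 743 RPKM (range 312 to 952), so that both copies of this pair were among the 100 highest genes. Major ALDOC, a copy of the brain aldolase, averaged 7.61 RPKM (range 2.96 to 18.8), and minor ALDOC averaged 0.0946 RPKM (range 0.0131 to 0.172).

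Triosephosphate isomerase, which interconverts the 2 products of aldolase, was read almost only from major TPI1 (ENSDARG00000040988). It stood at 518, 715 and 555 RPKM in tert-/- muscle, 210.3, 558, 601, 551 and 504 RPKM in tert+/- muscle and 328, 664, 545, 451 and 504 RPKM in wild type muscle. The lowest library was tert+/- replicate 1, and the genotypes overlapped. Minor TPI1 (ENSDARG00000025012) was between 0.208 and 0.764 RPKM in the 10 libraries without testis transcripts. It was at 20.9 RPKM in tert-/- replicate 1, 21.2 RPKM in tert+/- replicate 1 and 12.0 RPKM in wild type replicate 5.

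Phosphofructokinase, the step that sets the pace, was shared between both copies of the muscle gene. Major PFKM (ENSDARG00000014179) stood at 73.8, 80.5 and 102 RPKM in tert-/- muscle, 39.1, 102, 95.2, 91.3 and 70.4 RPKM in tert+/- muscle and 57.1, 104, 106, 112 and 46.4 RPKM in wild type muscle. Minor PFKM (ENSDARG00000060797) stood at 71.6, 133 and 68.8 RPKM in tert-/- muscle, 128, 71.9, 64.7, 53.9 and 48.5 RPKM in tert+/- muscle and 58.9, 106, 100.2, 72.2 and 21.1 RPKM in wild type muscle. The major copy was the higher in 9 of 13 libraries, and the ratio of both ranged from 0.305 in tert+/- replicate 1 to 2.19 in wild type replicate 5. The liver-type copies were near the floor, at 0.971 RPKM for major PFKL and 0.423 RPKM for minor PFKL.

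Glucose phosphate isomerase was carried by major GPI (ENSDARG00000103826), which interconverts the phosphates of glucose and fructose. It stood at 111, 76.8 and 201 RPKM in tert-/- muscle, 41.4, 92, 129, 136 and 73 RPKM in tert+/- muscle and 68.9, 159, 152, 58.9 and 35.1 RPKM in wild type muscle. The values were spread 5.72-fold, with tert-/- replicate 3 highest and wild type replicate 5 lowest. Minor GPI (ENSDARG00000012987) averaged 9.93 RPKM (range 5.2 to 22.5).

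Hexokinase traps glucose taken up from blood. Its leading gene hk1 (ENSDARG00000039452) stood at 12.6, 15.8 and 6.78 RPKM in tert-/- muscle, 9.47, 15.3, 8.96, 10.4 and 8.15 RPKM in tert+/- muscle and 5.63, 17.9, 14.1, 11.8 and 10.2 RPKM in wild type muscle. The second, hk2, the muscle hexokinase of mammals, averaged 7.29 RPKM (range 3.44 to 9.56) and was lower than hk1 in 12 of 13 libraries, by 1.55-fold in the means. Both were lowest in wild type replicate 1. Glucose uptake was represented by major SLC2A1 (ENSDARG00000007412), a copy of the widely expressed glucose transporter, at 7.21, 5.27 and 2.08 RPKM in tert-/- muscle, 3.2, 13.3, 4.11, 4.18 and 3.2 RPKM in tert+/- muscle and 2.38, 11.9, 7.42, 4.62 and 3.27 RPKM in wild type muscle. Its highest values were in tert+/- replicate 2 and wild type replicate 2. Minor SLC2A1 (ENSDARG00000001437) averaged 0.148 RPKM and had no read in wild type replicate 5.

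Lactate dehydrogenase was led by ldha (ENSDARG00000101251), the muscle subunit. It stood at 280.2, 408 and 446 RPKM in tert-/- muscle, 148, 362, 309, 275 and 452 RPKM in tert+/- muscle and 188, 373, 409, 307 and 299.7 RPKM in wild type muscle. LDHB (ENSDARG00000019644), the heart-type subunit, stood at 135, 279 and 95.6 RPKM in tert-/- muscle, 103, 135, 128, 129 and 90.9 RPKM in tert+/- muscle and 63.3, 119, 125, 99.3 and 154 RPKM in wild type muscle, with tert-/- replicate 2 above all others. That library also had the highest share of slow fibre genes, 0.206% of its counts, and whether fibre content had a part in its LDHB level was not tested. The third member, ldhbb, averaged 1.23 RPKM. Lactate export was represented by major SLC16A3 (ENSDARG00000045051), a copy of the lactate carrier of glycolytic muscle, at 20.2, 20.9 and 8.95 RPKM in tert-/- muscle, 17.5, 26, 12.5, 15.6 and 11.3 RPKM in tert+/- muscle and 10.2, 23.2, 19.9, 25.7 and 6.92 RPKM in wild type muscle. The ranges of the genotypes overlapped. Minor SLC16A3 was at 0.0855 RPKM.

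The remaining members act beside the main route. Major GPD1 (ENSDARG00000043180), the glycerol phosphate dehydrogenase that carries cytosolic reducing equivalents, stood at 147, 182 and 199 RPKM in tert-/- muscle, 90.3, 166, 179, 172 and 167 RPKM in tert+/- muscle and 136, 169, 198, 154 and 80.1 RPKM in wild type muscle. It varied little over the 10 libraries (coefficient of variation 11.0%). Minor GPD1 (ENSDARG00000043701) averaged 9.59 RPKM (range 2.97 to 24.7) and varied more, with a coefficient of 71.2% over the same libraries. The gene fbp2 (ENSDARG00000012366), muscle fructose bisphosphatase, which runs the phosphofructokinase step backwards, stood at 20.8, 27.2 and 40.6 RPKM in tert-/- muscle, 18.4, 21.3, 17.6, 14.9 and 24.9 RPKM in tert+/- muscle and 14, 32.6, 25, 20 and 22.9 RPKM in wild type muscle. Its highest value was in tert-/- replicate 3, but the other tert-/- libraries lay within the wild type range.

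On the glycogen side, the phosphorylase gene major PYGM (ENSDARG00000055518) led. It stood at 263, 207 and 261 RPKM in tert-/- muscle, 49, 165, 365, 236 and 153 RPKM in tert+/- muscle and 54, 248, 256, 306 and 142 RPKM in wild type muscle. This was the widest spread among the 14 members over 100 RPKM, 7.46-fold, and it came from 2 low libraries, tert+/- replicate 1 and wild type replicate 1. Minor PYGM (ENSDARG00000013317) was 59.2-fold lower in the means, at 3.52 RPKM (range 2.63 to 4.54), and varied by a coefficient of only 14.3% over the 10 libraries. The kinase subunit major PHKG1 (ENSDARG00000030604), which switches phosphorylase on, stood at 22.6, 29.9 and 21.4 RPKM in tert-/- muscle, 6.93, 37.6, 22.3, 24.6 and 23.7 RPKM in tert+/- muscle and 8.28, 29.4, 31.3, 32.4 and 11.7 RPKM in wild type muscle. It was low in the same libraries as major PYGM and in wild type replicate 5. Minor PHKG1 averaged 3.32 RPKM (range 1.65 to 7.32).

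Glycogen synthase, gys1 (ENSDARG00000016875), stood at 60.4, 57.6 and 49.3 RPKM in tert-/- muscle, 25.3, 60.2, 62, 58.9 and 49.2 RPKM in tert+/- muscle and 35.3, 71.5, 69.9, 63.1 and 25.4 RPKM in wild type muscle. The tert-/- libraries lay inside the wild type range. Phosphoglucomutase, pgm1 (ENSDARG00000013561), stood at 121, 162 and 115 RPKM in tert-/- muscle, 56.8, 158, 97.3, 91.5 and 89.6 RPKM in tert+/- muscle and 85.7, 146, 140.3, 93.1 and 65.4 RPKM in wild type muscle. It was highest in tert-/- replicate 2 and tert+/- replicate 2. The branching enzyme, major GBE1 (ENSDARG00000099524), stood at 3.83, 2.75 and 2.45 RPKM in tert-/- muscle, 0.687, 2.67, 2.7, 1.8 and 3.05 RPKM in tert+/- muscle and 0.532, 4.51, 3.46, 3.06 and 3.39 RPKM in wild type muscle. It had 2 low values, in wild type replicate 1 and tert+/- replicate 1. Minor GBE1 (ENSDARG00000029051) averaged 0.147 RPKM.

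Of the 20 steps, 17 were read from more than 1 identifier. In 14 of these the same gene led in all 13 libraries. Phosphofructokinase and hexokinase were among the exceptions. The share of major PFKM in the RPKM of its step was 49.5, 37.5 and 59.4% in tert-/- muscle, 23, 58.2, 59.2, 62.5 and 58.7% in tert+/- muscle and 48.7, 49.4, 51.2, 60.4 and 67.3% in wild type muscle. Among the leading genes this share ranged most widely, from 23.0% in tert+/- replicate 1 to 67.3% in wild type replicate 5, and the 3 genotypes overlapped. The share of ldha in lactate dehydrogenase was 66.8, 59.3 and 82.3% in tert-/- muscle, 58.1, 72.6, 70.6, 67.9 and 83.2% in tert+/- muscle and 74.7, 75.7, 76.5, 75.5 and 65.8% in wild type muscle. It was lowest in tert+/- replicate 1 and tert-/- replicate 2 and lay between 65.8% and 83.2% in the other 11 libraries. For aldolase, major ALDOA held between 69.1% and 78.5% in all libraries, and eno3 held between 83.2% and 90.1% of enolase.

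**Figure D2:**
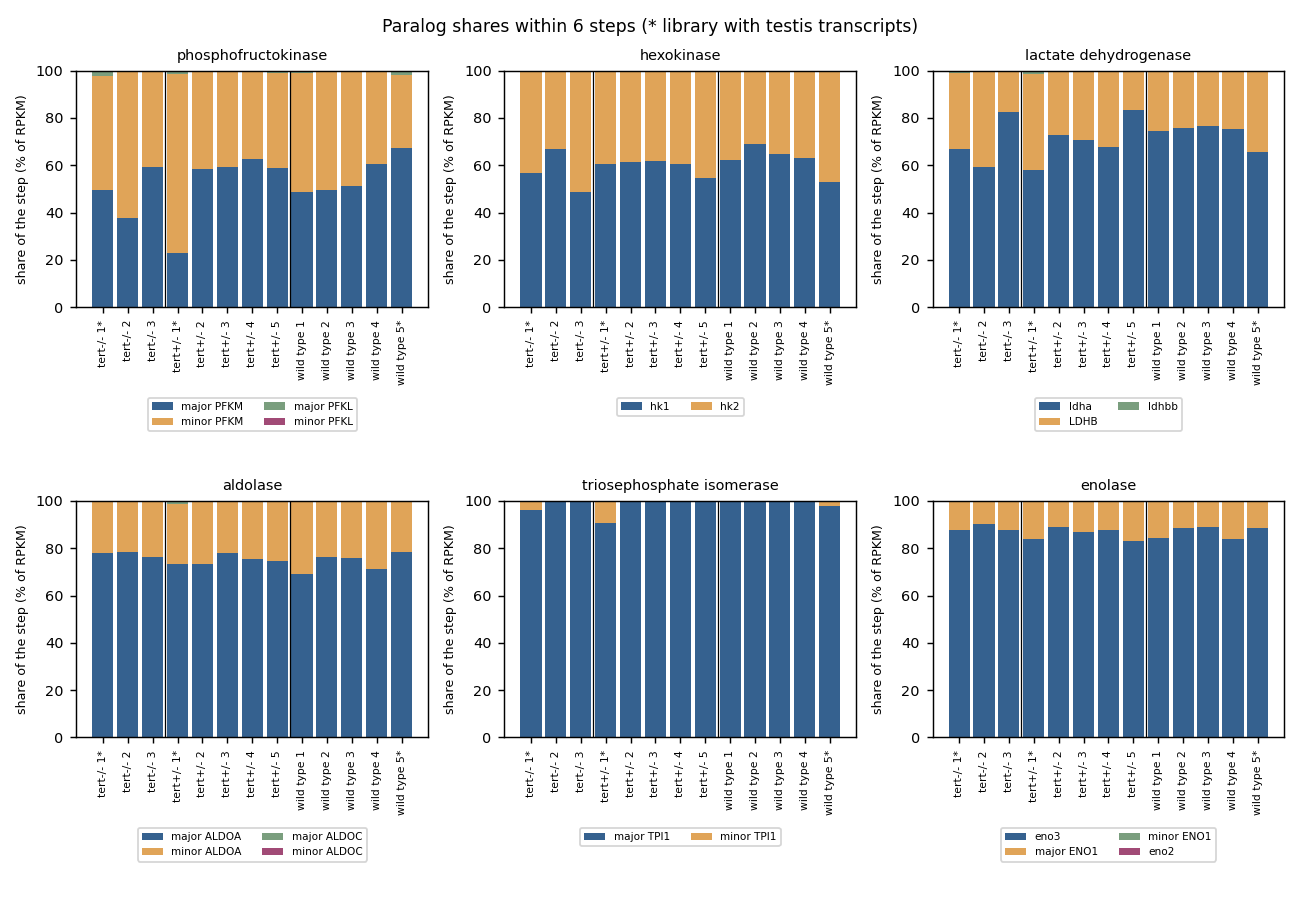
Share of each paralog in the summed RPKM of its step (vertical, percent) in 13 libraries (horizontal) for 6 steps, with tert-/- left, tert+/- in the middle and wild type right. Phosphofructokinase is split between both PFKM copies, with 23.0% to 67.3% from major PFKM, while minor TPI1 is visible only in the 3 libraries with testis transcripts.

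The libraries with testis transcripts stood apart in the paralogs of triosephosphate isomerase. Minor TPI1 was at 26.8 CPM in tert-/- replicate 1, 27.3 CPM in tert+/- replicate 1 and 15.5 CPM in wild type replicate 5, scaled to library totals, against 0.268 to 0.983 CPM in the other 10. It thereby made up 3.87%, 9.16% and 2.33% of the RPKM of its step in those 3 libraries. On library totals, 5 of the 45 members were above all other 10 libraries in these 3 (major PFKL, minor TPI1, minor ENO1, ldhbb and minor GBE1), beside 32.2% of all genes tested. One member, major ENO1, was below them in the 3, beside 0.222% of all genes. With TMM scaling, 2 members (minor TPI1 and minor GBE1) were above, beside 17.3% of all genes, and 13 were below, beside 10.5%. The TMM factors of these libraries were 2.30, 2.02 and 1.07, against 0.771 to 0.923 in the other 10. For 15 members the position of the 3 libraries changed with the scaling. Of the other 30, minor TPI1 and minor GBE1 were above and major ENO1 below under both, and 27 were neither above nor below under either. Minor GBE1 passed the expression filter only through these 3 libraries, so that its place above the other 10 says nothing further.

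Together the 45 genes took 2.43%, 3.22% and 3.05% of all counts in tert-/- muscle, 1.33%, 2.86%, 2.87%, 2.89% and 2.42% in tert+/- muscle and 1.78%, 3.15%, 3.26%, 2.35% and 1.98% in wild type muscle. The genotypes averaged 2.90% ± 0.413 (SD, n = 3) in tert-/-, 2.47% ± 0.668 (n = 5) in tert+/- and 2.50% ± 0.673 (n = 5) in wild type muscle, and their ranges overlapped. Without the 3 libraries with testis transcripts the means were 3.13% in tert-/-, 2.76% in tert+/- and 2.64% in wild type muscle. The tert-/- values left, 3.22% and 3.05%, still lay between wild type replicate 1 (1.78%) and wild type replicate 3 (3.26%). The 95% Wilson intervals of these shares, which cover counting error only, were at most 0.017 percentage points wide. The 28 identifiers of glycolysis made up most of this, with a mean of 2.43% over the 13 libraries, and the 10 of glycogen metabolism took 0.120%. Per 100 counts of fast fibre genes, the members had 7.64, 8.60 and 6.80 counts in tert-/- muscle, 4.98, 7.32, 7.01, 7.33 and 5.42 in tert+/- muscle and 4.26, 8.01, 7.96, 5.32 and 4.93 in wild type muscle. Glycogen genes had between 3.27 and 6.98 counts per 100 counts of glycolysis genes, lowest in wild type replicate 1 and highest in wild type replicate 4.

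**Figure D3:**
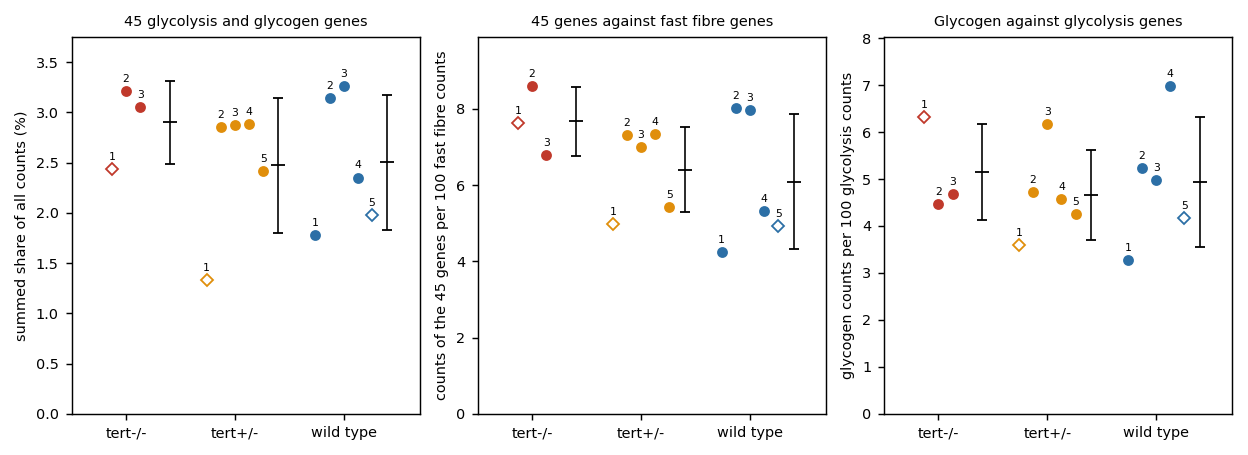
Summed share of counts of the 45 genes (left, percent), their counts per 100 counts of fast fibre genes (middle) and glycogen counts per 100 glycolysis counts (right), 1 point a library, numbered by replicate. Bars are the mean and SD of each genotype, open diamonds the 3 libraries with testis transcripts. In the left panel tert+/- replicate 1 (1.33%) and wild type replicate 1 (1.78%) are lowest.

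Wild type replicate 1 stood out although testis transcripts took only 0.00341% of its counts. Among the 10 libraries without them it held the lowest RPKM of 25 of the 45 members, beside 17.8% of all genes tested. With TMM scaling it was lowest for 23, beside 15.1%. Major PYGM was at 54.0 RPKM there, against 153 RPKM in the next lowest of these 10 libraries, and major GBE1 was at 0.532 RPKM against 1.798 RPKM. Major PHKG1 was at 8.28 RPKM against 21.4 RPKM. Its total count was 36145136 and fast fibre genes took 41.9% of it, both inside the range of the other libraries. Single fast fibre genes went both ways there. On library totals atp2a1 (882 CPM) and actn3b (2363 CPM) were lowest of the 10, while a copy of MYL1 (31250 CPM) was highest. Slow fibre genes took 0.0559% of its counts, against 0.0473% to 0.206% over all 13 libraries. Whether fibre make-up had a part in the levels of the members was not tested.

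At the other end, tert+/- replicate 2 held the highest RPKM of 13 of the 45 members among the same 10 libraries, beside 17.2% of all genes, and of 10 members with TMM scaling, beside 12%. Among these 13 were major SLC2A1 (13.3 RPKM), eno2 (1.11 RPKM), major ALDOC (11.1 RPKM) and pgam1a (11.5 RPKM), of which the last 3 are named for enzymes of nerve and brain in mammals. The others were hk2, gapdhs, minor ENO1, minor PKM, ldhbb and both copies of SLC16A3 and PHKG1. Neural markers (9 identifiers, among them mbpa and GFAP) took 0.0779% of the counts in this library, the highest share of all 13, against 0.0146% to 0.0522% in the others. Most of this share was mbpa, at 697 CPM on library totals. GFAP, NEFL and a copy each of SNAP25 and STMN2 were also highest here. ELAVL3, SYT1 and the other copies of SNAP25 and STMN2 were higher in other libraries. Whether nerve tissue had a part in the levels of the members was not tested.

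**Figure D4:**
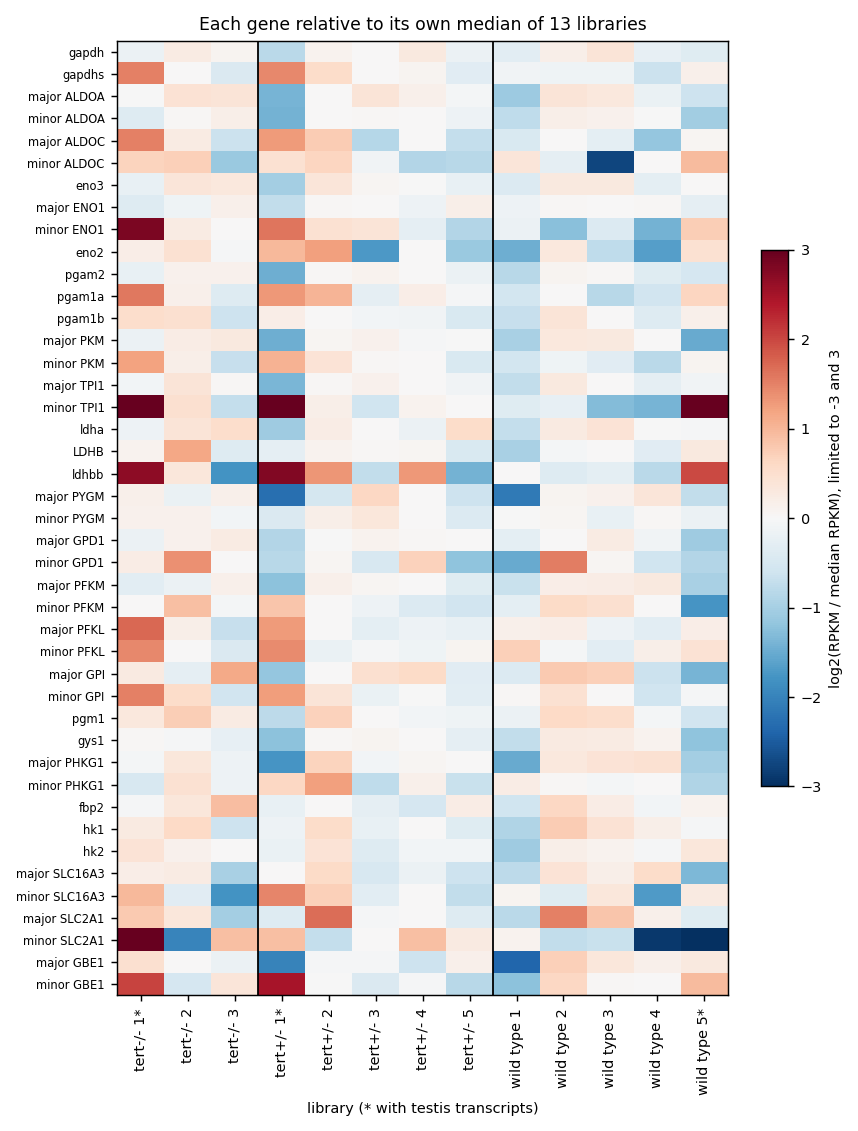
log2 ratio of the RPKM of 43 of the 45 genes (rows, by step) each to its own median over the 13 libraries (columns, tert-/- left, tert+/- in the middle, wild type right), with the colours limited to 3 in either direction. Columns tert+/- 1 and wild type 1 are blue over most leading genes, such as major PYGM at 49.0 and 54.0 RPKM, and minor TPI1 is red in the 3 starred libraries.

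Against wild type, tert-/- muscle had no member whose expression changed by edgeR's quasi-likelihood test with Benjamini-Hochberg adjustment, nor any gene among the 19407 tested (0%). At an unadjusted p under 0.05 there was 1 member (minor ENO1, higher), beside 2.56% of all genes. The lowest adjusted p of a member was 0.99 in edgeR's test. Fold changes were 23 above and 22 below 0, with a median log2 fold change of 0.02, beside a median of -0.03 over all genes. Neither DESeq2 nor limma-voom called a member in this or the other comparisons. For no member did the 3 tert-/- libraries lie wholly above or below the 5 wild type libraries on TMM-scaled CPM, beside 1.39% of all genes.

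Minor ENO1 was at 2.79, 1.17 and 1.18 CPM in tert-/- muscle, 1.36, 1.34, 1.42, 0.89 and 0.577 CPM in tert+/- muscle and 1, 0.431, 0.782, 0.418 and 1.41 CPM in wild type muscle. The highest value was in tert-/- replicate 1, which carried testis transcripts. Without that library edgeR's test gave no member an unadjusted p under 0.05 in this comparison (lowest 0.081). The log2 fold change of minor ENO1 in tert-/- over wild type was 1.11 (SE 0.47) with all libraries. The wild type replicate 5 value lay among the tert-/- values, and the gene was near the floor of detection. Major ALDOC followed with 0.31 (SE 0.33), from 18, 18.8 and 12 CPM in tert-/- muscle, 17.5, 26.5, 9.54, 17 and 10.4 CPM in tert+/- muscle and 13.2, 16.5, 13.5, 8.01 and 14.2 CPM in wild type muscle. The third in this direction was pgam1a with 0.25 (SE 0.30), from 13.2, 12.1 and 9.99 CPM in tert-/- muscle, 12.2, 22.2, 9.92, 13.6 and 11.6 CPM in tert+/- muscle and 8.55, 11.5, 6.45, 8.31 and 14.8 CPM in wild type muscle. The differences of major ALDOC and pgam1a were smaller than their SE, and the ranges of the genotypes overlapped.

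In the other direction, major SLC2A1 had the smallest p in tert-/- muscle, with a log2 fold change of -0.81 (SE 0.66), from 5.72, 10.4 and 4.91 CPM in tert-/- muscle, 2.88, 26.2, 8.89, 8.95 and 6.86 CPM in tert+/- muscle and 5.41, 24.6, 15.4, 10.3 and 5.56 CPM in wild type muscle. Wild type replicates 2 and 3 were above the 3 tert-/- libraries, while the other wild types lay among them. Minor PFKL differed by -0.32 (SE 0.28), from 2.06, 1.89 and 1.68 CPM in tert-/- muscle, 2.29, 1.64, 2.02, 1.85 and 2.15 CPM in tert+/- muscle and 3.55, 1.91, 1.6, 2.42 and 2.21 CPM in wild type muscle, and major SLC16A3 by -0.47 (SE 0.51), from 27.4, 71.1 and 36.2 CPM in tert-/- muscle, 27, 88, 46.4, 57.2 and 41.7 CPM in tert+/- muscle and 39.8, 82.5, 70.7, 98.7 and 20.2 CPM in wild type muscle. Both ranges overlapped with wild type. The median SE over the members was 0.54 on the log2 scale in this comparison, which limits the size of a change that these libraries could show.

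In tert+/- muscle against wild type, edgeR's test called no member and no gene (0%). No member had an unadjusted p under 0.05, beside 2.87% of all genes. Fold changes of the members were 15 above and 30 below 0, with a median of -0.08, beside 0.00 over all genes, and the lowest adjusted p in edgeR's test was 0.9999. No member's tert+/- and wild type libraries were separate, beside 0.593% of all genes. The smallest p among higher members were those of pgam1a with 0.49 (SE 0.27), minor PKM with 0.34 (SE 0.19) and gapdhs with 0.32 (SE 0.18). All 3 are low relatives of the leading muscle genes pgam2, major PKM and gapdh, whose own log2 fold changes lay within 1 SE of 0.

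Minor PKM was at 32.8, 40 and 26.3 CPM in tert-/- muscle, 33.2, 47.1, 39.5, 38.4 and 28.1 CPM in tert+/- muscle and 27.9, 34, 29.4, 23 and 32.5 CPM in wild type muscle. For gapdhs the values were 65.5, 57.8 and 50.1 CPM in tert-/- muscle, 70.9, 82.7, 62.3, 65.3 and 48.9 CPM in tert+/- muscle and 61, 54.2, 54.2, 41.5 and 54.5 CPM in wild type muscle. In both, tert+/- replicate 2 was highest of the 13 and wild type replicate 4 lowest. Among lower members, fbp2 differed by -0.37 (SE 0.41) and minor PFKL by -0.23 (SE 0.24). Both differences were smaller than their SE, and the genotypes overlapped.

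Between tert-/- and tert+/- muscle, edgeR's test again called no member and no gene (0%), and no member had an unadjusted p under 0.05, beside 1.46% of all genes. Fold changes were 27 above and 18 below 0, with a median of 0.05, beside 0.00 over all genes. No member's libraries were separate between these genotypes, beside 1.22% of all genes. Higher in tert-/- with the smallest p were minor ENO1 with 0.62 (SE 0.47), fbp2 with 0.61 (SE 0.47) and minor GPD1 with 0.73 (SE 0.74). The values of fbp2 were 11.8, 38.4 and 68.2 CPM in tert-/- muscle, 11.8, 30, 27.1, 22.7 and 38 CPM in tert+/- muscle and 22.6, 48.1, 36.9, 31.9 and 27.7 CPM in wild type muscle. Its difference rested on tert-/- replicate 3, without which it was -0.05. Minor GPD1 was at 6.17, 34.2 and 15.7 CPM in tert-/- muscle, 3.38, 13.5, 10.3, 22.9 and 6.16 CPM in tert+/- muscle and 5.24, 39.9, 14.3, 9.75 and 6.18 CPM in wild type muscle, and without tert-/- replicate 2 its difference was -0.06.

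Lower in tert-/- than in tert+/- muscle were major SLC2A1 with -0.62 (SE 0.66), gapdhs with -0.19 (SE 0.21) and minor PKM with -0.18 (SE 0.22). The difference of major SLC2A1 rested on tert+/- replicate 2, without which it was 0.03. The 3 comparisons share libraries, so the same gene in 2 of them is not a repeat observation.

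Without the 3 libraries with testis transcripts, 44 members were tested (minor GBE1 no longer passed the filter) and again edgeR's test called none. The split of higher and lower members was 33 to 11 in tert-/- against wild type, with a median log2 fold change of 0.24, then 27 to 17 with 0.03 in tert+/- against wild type and 32 to 12 with 0.12 in tert-/- against tert+/-. Over all genes 47.2%, 50.4% and 48.9% were above 0 in the same order, with medians of -0.02, 0.004 and -0.007. At an unadjusted p under 0.05 there was 1 member in tert-/- against wild type (LDHB, 0.86, SE 0.35), beside 3.39% of all genes. With the TMM factors of all 13 libraries, LDHB was at 496 CPM in tert-/- replicate 2. In tert-/- replicate 3 it was at 202 CPM, within the 129 to 232 CPM of the remaining wild types. There were 2 in tert+/- against wild type (pgam1a, 0.73, SE 0.26, and minor PFKM, -0.52, SE 0.23), beside 8.96%, and 2 in tert-/- against tert+/- (minor PFKM, 0.79, SE 0.27, and fbp2, 0.88, SE 0.33), beside 2.58%. Only 2 tert-/- libraries remained in these fits. The wild types that remained included replicate 1, the lowest of the 10 libraries for 23 of the 45 members with TMM scaling. These fits were not repeated without it. When it alone was left out of the 13, 20 members were above and 25 below 0 in tert-/- against wild type.

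**Figure D5:**
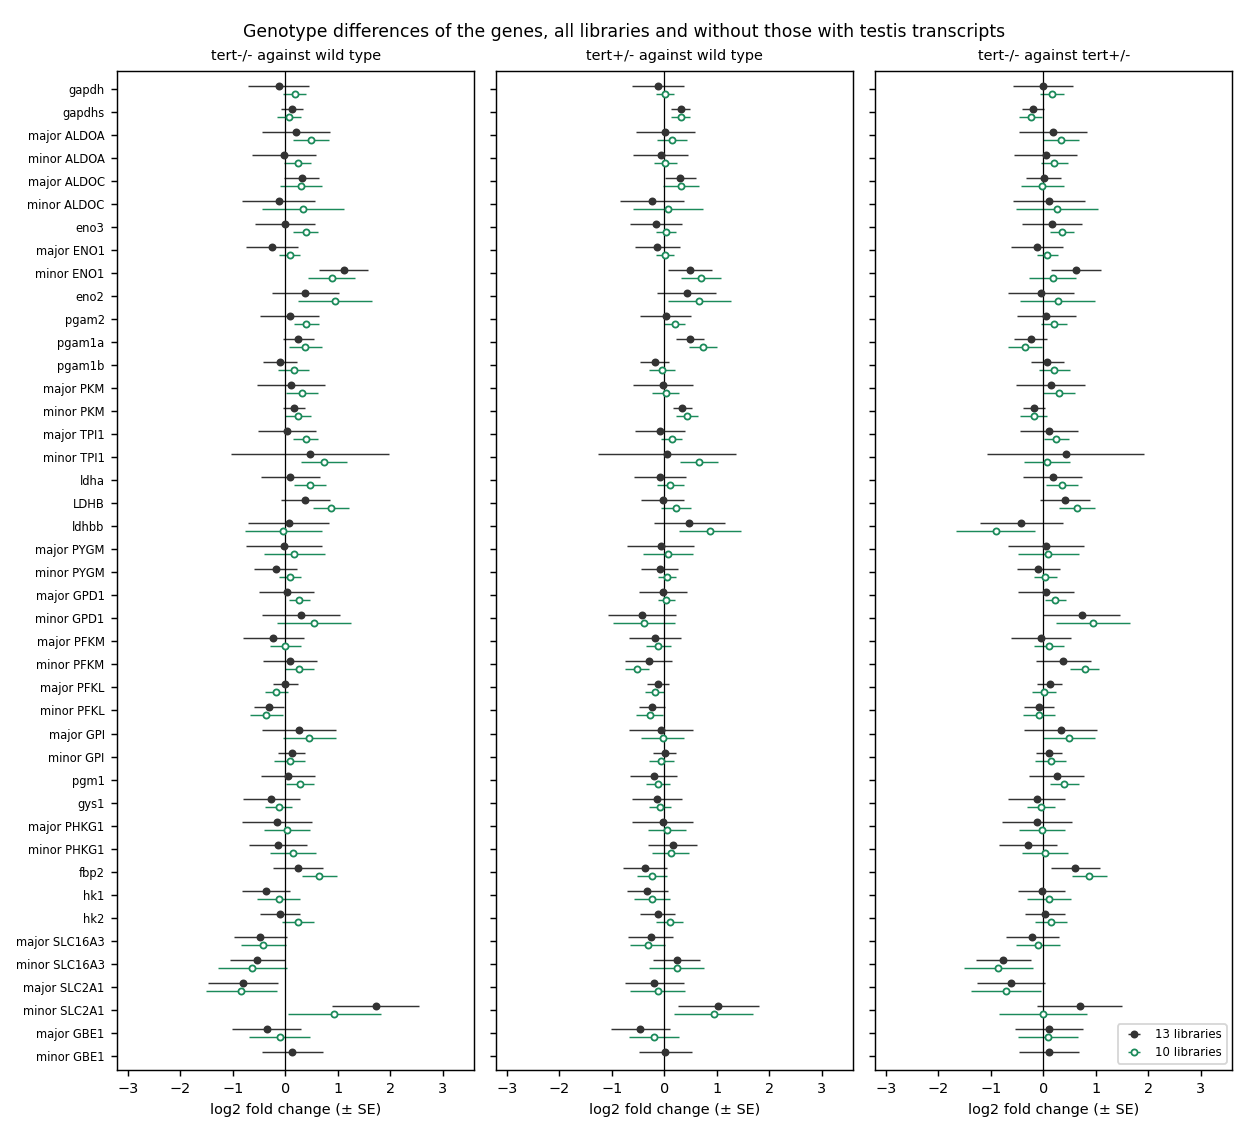
log2 fold change with its SE (horizontal) of 43 of the 45 genes (rows, by step) in the 3 comparisons, with all 13 libraries (filled, black) and with the 10 libraries without testis transcripts (open, green). Minor GBE1 has no open point. No gene was called in any comparison, and the largest value, 1.72 for minor SLC2A1, belongs to a gene of 0.148 RPKM.

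Which members were above or below 0 depended on the scaling. Scaled to library totals alone, 40 members were above and 5 below 0 in tert-/- against wild type, 24 and 21 in tert+/- against wild type, and 40 and 5 in tert-/- against tert+/-. This scaling also moved the median of all genes, to 0.49, 0.29 and 0.25 in the same order, against medians of 0.29, 0.03 and 0.25 for the members. Scaled to fast fibre genes, the splits were 44 to 1, 36 to 9 and 40 to 5, with medians of 0.45, 0.13 and 0.25 for the members and 0.71, 0.54 and 0.22 for all genes. Relative to the median of all genes, the median of the members in tert-/- against wild type was thus 0.05 with TMM scaling, -0.20 with library totals and -0.27 with fast fibre scaling. No member was called under either.

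Of the other genes of the pathway (79 symbols, among them regulators of pyruvate dehydrogenase and the enzymes of fructose 2,6-bisphosphate), 60 symbols matched 69 identifiers and 68 were tested. edgeR's test called none in any comparison. At an unadjusted p under 0.05 there were 2 in tert-/- against wild type, beside 2.56% of all genes, 5 in tert+/- against wild type, beside 2.87%, and 1 in tert-/- against tert+/-, beside 1.46%. PGM2 (ENSDARG00000018178), a relative of phosphoglucomutase that in mammals acts mainly on pentose phosphates, was at 4.83, 3.26 and 3.47 CPM in tert-/- muscle, 3.11, 3.78, 4.34, 3.93 and 3.94 CPM in tert+/- muscle and 2.76, 2.34, 1.96, 2.09 and 2.56 CPM in wild type muscle. With TMM scaling, all 8 mutant libraries lay above the 5 wild type ones. This separation depends on the scaling. The TMM factors of tert-/- replicate 3 and wild type replicate 5 were 0.771 and 1.07, and these 2 libraries do not keep their order on library totals. Taken singly, tert-/- libraries were separate from wild type for 1.39% of all genes, and tert+/- libraries for 0.593%. The share of genes separate in both was not computed. The log2 fold change of PGM2 was 0.72 (SE 0.23) in tert-/- and 0.71 (SE 0.20) in tert+/- muscle over the same wild types, with adjusted p of 0.99 and 0.9999 in edgeR's test. DESeq2 without the 3 libraries with testis transcripts was an alternative chosen after seeing the data. In tert+/- against wild type it called 38 of the 17970 genes tested. Among them were 2 of the 68 other pathway genes, PGM2 (0.83, SE 0.18, adjusted p = 0.0096) and tigara (-0.81, SE 0.20, adjusted p = 0.028). On the same libraries edgeR's test gave both an adjusted p of 0.55. tigara was singled out after its value was seen.

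Besides PGM2, the rule for named genes gave PDK3 (ENSDARG00000014527), a kinase that restrains pyruvate dehydrogenase, with 1.45 (SE 0.62) in tert-/- over wild type, where tert-/- replicate 1 was at 5.25 CPM and the other 2 tert-/- libraries were at 0.945 and 0.940 CPM. Without tert-/- replicate 1 the difference was 0.15. PFKFB4, a bifunctional enzyme of fructose 2,6-bisphosphate, had 1.21 (SE 0.42) in tert+/- over wild type, with 36.7 CPM in tert+/- replicate 2, without which it was 0.61. In tert-/- over tert+/-, HKDC1, a hexokinase domain protein, had 2.19 (SE 0.81). It was near the floor, at 1, 4.03 and 0.147 CPM in tert-/- muscle, 0.53, 0.327, 0.301, 0.494 and 0.224 CPM in tert+/- muscle and 2.31, 0.308, 0.587, 0.508 and 0.972 CPM in wild type muscle, and tert-/- replicate 3 lay below every tert+/- library. Without tert-/- replicate 2 the difference was 0.60.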

How the data were processed

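Muscle RNA was made into libraries with Illumina's TruSeq kit (3 tert-/-, 5 tert+/- and 5 wild type samples, grouped by the strain label). The submitters' processing notes name bcl2fastq 1.8.4 for demultiplexing, STAR 2.4.1d for alignment, GRCz10 as the genome and featureCounts 1.4.6-p4 for counting. For the annotation release, the strand setting and multi-mapping reads, no choice was given in the sources used here. Counts of near-identical paralogs and of overlapping genes are therefore uncertain. The authors deposited whole-number counts per gene, not normalized, together with RPKM values made from them with 1 length for each gene.

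The deposited RPKM values were compared with the counts over 2227 genes that had 200 counts or more in all samples. They fitted the 13 library totals applied in turn down the table, which gives 7.69% of values their own sample's total. They served only to recover gene lengths, and RPKM were recalculated from the counts. A table of symbols named 26269 of the 32105 identifiers (81.8%). No 2 libraries held identical counts. Low genes are least precise in wild type replicate 5, the shallowest library.

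Genotypes were compared by the quasi-likelihood test of edgeR 4.0.16 in R 4.3.3. All 13 samples entered 1 fit on the counts, with a mean per genotype, TMM factors and the default expression filter by genotype. The threshold was an adjusted p of 0.05 (Benjamini-Hochberg, over all genes tested). SE of edgeR were derived from the test, as the absolute log2 fold change divided by the square root of its F statistic. They are therefore not a separate estimate of error. The fit was tested on simulated data, where it had to recover the sizes of the changes put in. A minimum number of calls was required only at a fixed spread, not at the spread fitted to these libraries. The test therefore does not show which changes these libraries could detect. Alternatives were DESeq2 1.42.0, limma-voom with quality weights (limma 3.58.1), size factors from medians of ratios, library totals alone, scaling to fast fibre genes, no filter, a filter of 5 CPM in 3 samples, only the 2 genotypes compared, omission of the 3 libraries with testis transcripts, and omission of each library in turn. Shares carry 95% Wilson intervals.

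The members and lists were chosen with earlier results of these data known, so no p-value was adjusted over the list alone. Values are named by a rule: each member with its level, the leading member of each step in every sample, and, in each comparison, the 3 members of smallest p in either direction that averaged 1 CPM or more in the higher genotype. Of the other pathway genes, those called or else the 2 of smallest p are named. Some values that the rule would name, among them those of 2 member identifiers, are not reported here, and figures leave them out. Sequences and coordinates were not used here.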

Additional observations from a re-analysis of the deposited data

Results flagged for a closer look

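In the 2 genotypes with 5 libraries, 92 groups of values were examined, each the RPKM of 1 gene or the summed share of counts in 1 genotype. In 13 of them, all of genes, the highest or lowest value stood apart from the other 4 by Dixon's criterion. Chance alone flags about 1 in 20 groups, and groups of the same library are not independent. The 3 tert-/- libraries were too few for the criterion.

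Of the 13, 9 lay in tert+/- replicate 1, which carried testis transcripts (0.182% of its counts). The leading muscle genes were low there. Minor ALDOA was at 312 RPKM, against 755 RPKM in the next lowest tert+/- library. Major TPI1 was at 210 RPKM against 504 RPKM, major GPD1 at 90.3 RPKM against 166 RPKM, pgam2 at 259 RPKM against 630 RPKM and major PKM at 241 RPKM against 645 RPKM. Genes that are low in muscle were high in the same library. Major PFKL was at 1.91 RPKM, against 0.781 RPKM in the next highest tert+/- library, and minor PFKL at 0.869 RPKM against 0.343 RPKM. Minor TPI1 was at 21.2 RPKM against 0.618 RPKM, and minor GBE1 at 0.507 RPKM against 0.0908 RPKM. Minor GBE1 had at most 23 counts in any library. It passed the expression filter only through the libraries with testis transcripts, so its high value here says nothing further. Fast fibre genes took 26.7% of the counts of this library, the lowest share of the 13, and the part of either in these values was not tested.

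Wild type replicate 5, with 0.0697% of testis transcripts, had 2 such values, minor TPI1 at 12.0 RPKM against 0.463 RPKM in the next highest wild type library and ldhbb at 2.28 RPKM against 0.575 RPKM. The last 2 lay in libraries without testis transcripts. Major SLC2A1 was at 13.3 RPKM in tert+/- replicate 2, against 4.18 RPKM in the next highest tert+/- library, and minor GPD1 was at 24.7 RPKM in wild type replicate 2 against 8.85 RPKM.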

How the results depend on the processing

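No member was called in any comparison under any alternative run. Of 519 refits of the 24 named log2 fold changes none passed the threshold, with adjusted p from 0.17 (limma-voom) to 1, and 12 reversed sign. These refits leave out DESeq2 without the 3 libraries with testis transcripts. That fit gave PGM2 an adjusted p of 0.0096 in tert+/- against wild type, which passes the threshold. DESeq2 called 1 gene in tert-/- against wild type and 1 in tert-/- against tert+/-, neither a member, where edgeR called 0, and without the 3 libraries with testis transcripts, an alternative chosen after seeing the data, it called 38 genes in tert+/- against wild type, none a member and 2 of them other pathway genes (PGM2 and tigara). With library totals alone, minor PFKL had a log2 fold change of 0.33 in tert-/- and 0.12 in tert+/- over wild type, and gapdhs and minor PKM had 0.13 and 0.14 in tert-/- over tert+/-. Scaled to fast fibre genes, the same 4 values were 0.58, 0.41, 0.092 and 0.12, and major SLC16A3 had 0.16 in tert-/- over wild type. When each replicate was left out in turn, the differences of tert-/- and tert+/- ranged from -1.03 to 0.027 for major SLC2A1, from -0.051 to 1.07 for fbp2 and from -0.057 to 1.17 for minor GPD1. The cause of these reversals was not tested. The median over the members ranged over all alternatives from -0.26 to 0.45 in tert-/- against wild type, from -0.18 to 0.13 in tert+/- against wild type and from -0.13 to 0.32 in tert-/- against tert+/-. Counted as reads rather than per length, pgam2 held 95.2% and eno3 84.4% of their steps. No paired analysis was possible because the replicate numbers follow the order of the records and pair no fish. Depth limits the genes under 1 RPKM most, and 3 tert-/- libraries, 1 of them with testis transcripts, limit both comparisons that use them.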
